A study of Homo sapiens with 6 samples.

Results

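The genes described here are the histone lysine methyltransferases and demethylases of BaF3-T315I cells, the enzymes that place and remove methyl groups on histone tails. They were chosen by name among the protein-coding genes of the expression table, as the Kmt, Kdm and Setd genes with a number, Ezh1, Ezh2, Ehmt1, Ehmt2, the Nsd and Suv39h genes and Dot1l. This gave 43 genes of the 22413 listed, 26 of them methyltransferases or other SET domain genes and 17 demethylases, while 2 name matches of another biotype, Kdm6bos and Kdm4dl, were left out. BaF3-T315I cells derive from the murine blood cell line BaF3 by stable transfection with a BCR-ABL gene carrying the T315I mutation, so control and treated cells alike express the oncogene. The 3 control samples were labelled as control with no vehicle or time given, and the other 3 samples received I13, an inhibitor of histone deacetylases, at 1.1 µM for 48 h. All 6 samples come from 1 transfected line, and the labels do not say whether the replicates were separate cultures. The study mentions repeated independent experiments in general, without naming the sequencing, so p-values measure the spread between these samples, which may be technical. The labels give the organism as human, whereas the gene identifiers are mouse Ensembl identifiers.

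Histone lysine methylation is written mainly by SET domain enzymes and by the structurally different Dot1l, and it is erased by the flavin-dependent LSD1 enzymes and by the iron- and oxoglutarate-dependent JmjC enzymes. Methylation of lysine 4 of histone H3 (H3K4) marks promoters and enhancers, that of H3K36 and H3K79 marks transcribed genes, and that of H3K9, H3K27 and H4K20 is found in silent or compacted chromatin. Several of these enzymes work in the same complexes as histone deacetylases, LSD1 in the CoREST complex among them, and KMT2A, DOT1L, NSD2 and EZH2 are well-studied factors in leukemia.

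The values are FPKM, fragment counts divided by gene length and by library size, so levels can be compared between genes. The library totals recovered from the values ran from 16762119 to 17722950 fragments. Of the 43 members, 40 had a mean of at least 0.5 FPKM over the 6 samples, the limit for testing, with means from 2.79 to 41.7 FPKM and between 225 and 5046 fragments in a library. The median of their means was 10.5 FPKM, against 7.48 FPKM for all 12163 genes tested. Ehmt2, Kmt5a and Ezh2 were the most abundant writers, and Kdm5c and Kdm4a the most abundant erasers, all above 15 FPKM in every sample. The 3 members below the limit were Nsd1, Setd4 and Kdm4d. Nsd1, an H3K36 methyltransferase, had 0.0310 ± 0.0118 FPKM in the controls and 0.0271 ± 0.00443 FPKM after I13 (SD, n = 3 each), from 4 to 9 fragments in a library. Setd4 lay between 0.0965 and 0.410 FPKM with 8 to 34 fragments in a library, and Kdm4d between 0.0992 and 0.276 FPKM with 5 to 14 fragments. With so few fragments, differences of these 3 genes are not interpreted. In the fit without that limit, 0 of the 43 members were called higher or lower.

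**Figure D1:**
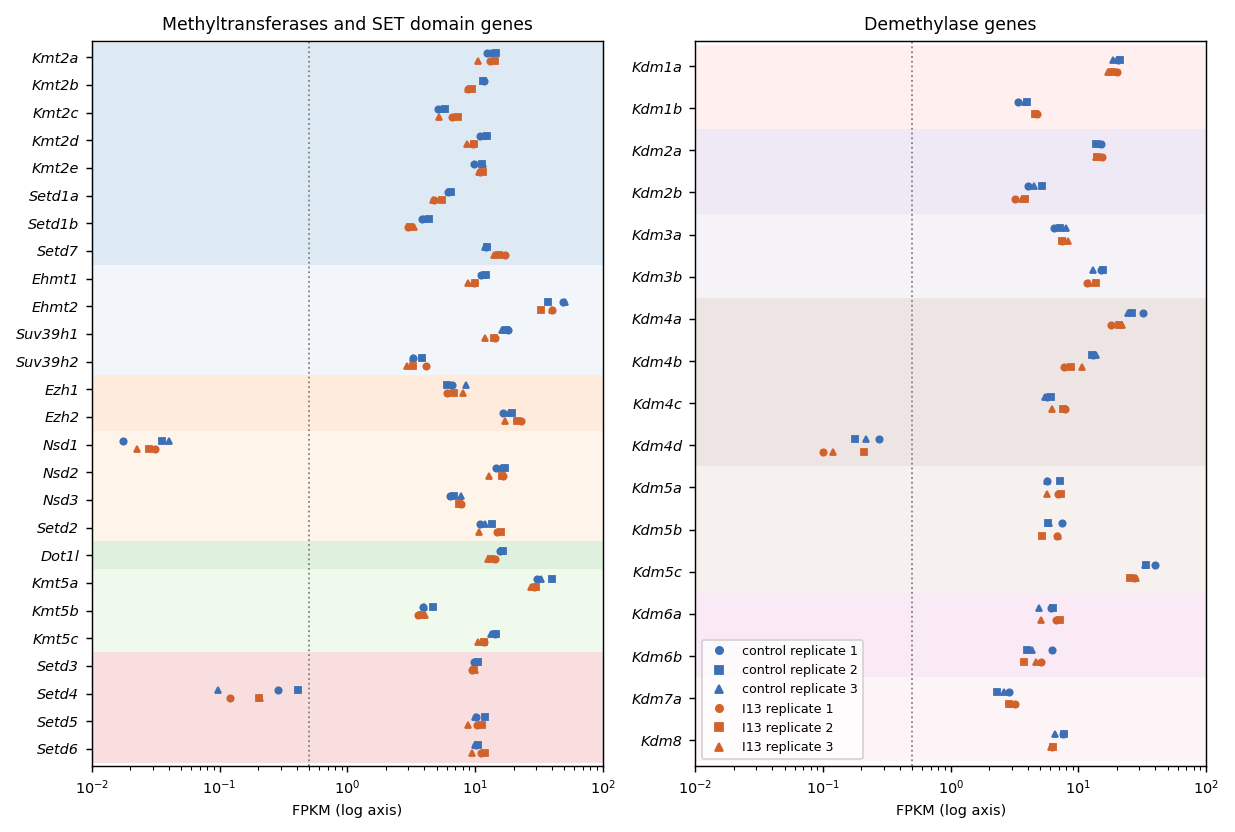
Level of each of the 43 members in each sample, in FPKM on a log axis, with control samples in blue, I13 samples in orange and the replicate number as the marker shape. Bands group genes by role, and the 3 genes left of the dotted testing limit of 0.5 FPKM are Nsd1, Setd4 and Kdm4d, and the other 40 lie between 2.79 and 41.7 FPKM in the mean.

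No member passed the thresholds for a change after I13. The test was limma on log2(FPKM + 0.1), run over all genes tested. A call needed a Benjamini-Hochberg adjusted p below 0.05 and a log2 fold change of 0.58 or more in size, a size that 0 of the 40 members and 9.41% of all genes tested reached. On this scale, fold changes of genes near 0 FPKM come out too small. Of the 12163 genes tested, 0.0329% were called higher and 0.00822% lower, so calls were rare in this fit. They were more frequent with the replicate block described below. The study reported more changed genes at the same thresholds, by a test it does not name. The lowest adjusted p of a member was 0.116. Before adjustment, 12 members (30%) were lower after I13 and 3 members (7.5%) were higher at p below 0.05, where 10.8% of all genes tested were lower and 7.79% higher. The share of members on the lower side was thus above the background, and that on the higher side was close to it. The highest and lowest log2 fold changes were 0.35 for Setd7 and -0.55 for Kdm4b. The median log2 fold change of the 40 members was -0.084, against -0.0053 for all genes tested, and 13 of the 40 members (32.5%) were above 0, where 49.2% of all genes tested were. The median was -0.134 without I13 replicate 1, against -0.0096 for all genes tested. Rescaled to TPM it was -0.055, against 0.023 for all genes tested, and 9 members were then lower at an unadjusted p below 0.05. The count of higher members was 1 without control replicate 1 or without I13 replicate 1 and 6 without I13 replicate 3. Shares of all genes tested were not counted for these fits. Whether the counts over all genes tested moved alike is therefore not known. In these bulk samples a lower share of cells with a transcript and less transcript per cell cannot be told apart.

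The groups did not overlap in 18 members. In 14 members (35%) every I13 sample lay below every control, against 15.4% of all genes tested, and in 4 members (10%) every I13 sample lay above every control, against 9.82%. Set side by side by replicate number, 17 members were lower after I13 in all 3 pairs and 8 were higher in all 3 pairs, where 27.3% and 24.1% of all genes tested were. The summed level of the 43 members was 493, 501 and 487 FPKM in control replicates 1, 2 and 3 and 458, 454 and 427 FPKM in I13 replicates 1, 2 and 3. These genes took up 0.42%, 0.437% and 0.422% of the fragments on listed genes in the controls and 0.407%, 0.406% and 0.372% in the I13 samples. The I13 samples were thus lower in both sums with no overlap, and I13 replicate 3 was the lowest.

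Same-numbered samples deviated from their group means more alike than others, by the check described with the processing. That check uses these same data and cannot establish that the samples were paired. The fit above did not pair samples by number, and the gene values that follow come from that fit unless the block is named. With the replicate number as a block the same 15 members had an unadjusted p below 0.05, together with Ehmt2, Kdm3b and Kmt5a on the lower side. On the lower side that made 15 members (37.5%), where 14.8% of all genes tested were, and on the higher side 3 members (7.5%), where 13.2% were. In the blocked fit 0 members had an adjusted p below 0.05 from limma, with 0.0519 for Kdm4b as the lowest, where 1.24% of all genes tested were lower and 1.75% higher at that limit. With the fold change limit added, 1.36% of all genes tested were called higher and 0.526% lower. When the block was combined with voom on the recovered fragments, 10 members had an adjusted p below 0.05 on the lower side (25%, against 5.77% of all genes tested) and Setd7 on the higher side (2.5%, against 6.61%), none with an absolute log2 fold change of 0.58. The 10 lower members were Kmt2b, Kmt2d, Setd1a, Setd1b, Suv39h1, Kmt5c, Kdm2b, Kdm4a, Kdm4b and Kdm5c. Their adjusted p in that fit ran from 0.0105 for Kdm4b to 0.0493 for Setd1a, and that of Setd7 was 0.0293.

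**Figure D2:**
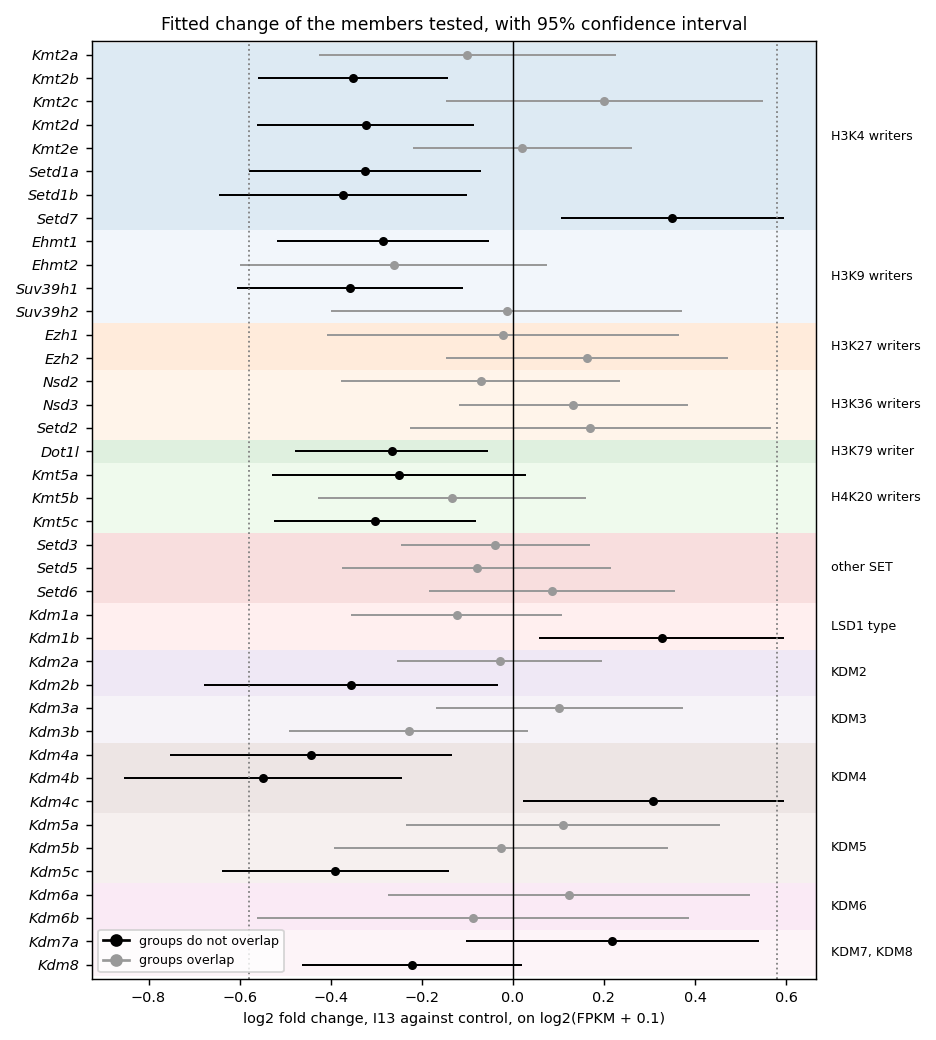
Log2 fold change of I13 against control on log2(FPKM + 0.1) for the 40 members tested, as points with 95% confidence intervals from limma, grouped by role, where black marks the 18 members whose control and I13 samples do not overlap, grey the others, and dotted lines stand at -0.58 and 0.58. The fit had no replicate block. All points lie between the dotted lines, with Kdm4b at -0.55 the lowest.

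**Figure D3:**
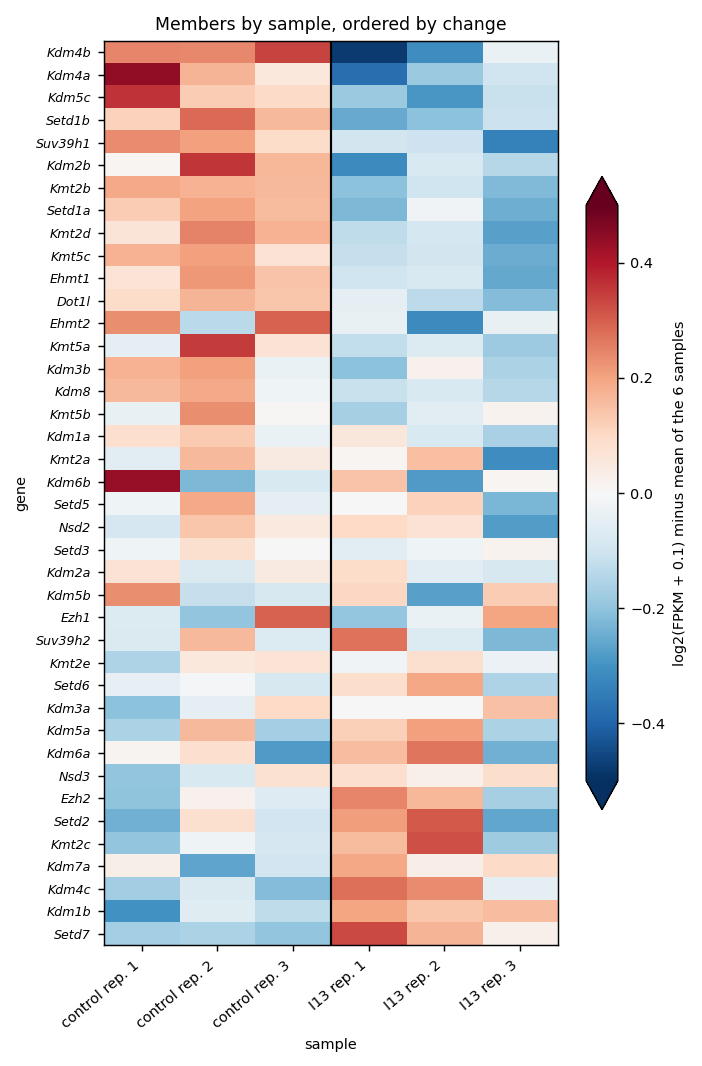
Deviation of each sample from the mean of the 6 samples in log2(FPKM + 0.1), for the 40 members tested, ordered from the lowest log2 fold change (Kdm4b) to the highest (Setd7), with red above and blue below the mean and colours saturating at -0.5 and 0.5. The upper rows are mostly red in the 3 controls and blue in the 3 I13 samples, while the middle rows vary as much within a group as between groups.

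Of the 8 genes grouped under H3K4 methylation, 4 (50%) were lower and 1 (12.5%) was higher at an unadjusted p below 0.05. The shares of all genes tested were 10.8% and 7.79%. The group includes Setd7 and Kmt2e, the latter with no known methyltransferase activity. The 4 lower ones encode catalytic subunits of COMPASS type complexes, which methylate H3K4 at promoters and enhancers. So do Kmt2a and Kmt2c, whose groups overlapped. Kmt2b (ENSMUSG00000006307), the MLL2 enzyme of CpG-rich promoters, measured 11.7, 11.5 and 11.4 FPKM across control replicates 1 to 3, against 8.83, 9.51 and 8.74 FPKM across I13 replicates 1 to 3. The controls lay within a narrow range and all I13 samples were lower. The means went from 11.5 ± 0.114 FPKM in the controls to 9.03 ± 0.423 FPKM after I13 (mean ± SD, n = 3 each), and the log2 fold change was -0.35 ± 0.09 (SE, limma adjusted p = 0.124). Kmt2d (ENSMUSG00000048154), which acts mainly at enhancers, had 10.9, 12.4 and 11.8 FPKM in the controls and 9.56, 9.83 and 8.65 FPKM after I13, with a log2 fold change of -0.32 ± 0.10 (SE, limma adjusted p = 0.168). All I13 samples again lay below all controls. Setd1a (ENSMUSG00000042308), a main writer of H3K4 trimethylation, had 6.12, 6.46 and 6.26 FPKM in the controls and 4.78, 5.53 and 4.71 FPKM after I13, and its log2 fold change was -0.33 ± 0.11 (SE, limma adjusted p = 0.186). For its paralogue Setd1b (ENSMUSG00000038384) the values were 3.87, 4.36 and 4.01 FPKM in the controls and 2.98, 3.08 and 3.31 FPKM after I13, and the log2 fold change was -0.37 ± 0.11 (SE, limma adjusted p = 0.166). Both SETD1 genes were without overlap between the groups.

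Setd7 was higher in every I13 sample. Setd7 (ENSMUSG00000037111), which monomethylates H3K4 in vitro and many proteins other than histones, measured 12.2, 12.3 and 11.98 FPKM across control replicates 1 to 3, against 17.3, 15.5 and 13.99 FPKM across I13 replicates 1 to 3. The controls were nearly equal, and the I13 samples spread more but all lay above them. The means went from 12.2 ± 0.169 FPKM in the controls to 15.6 ± 1.65 FPKM after I13 (mean ± SD, n = 3 each), 1.28-fold, with a log2 fold change of 0.35 ± 0.10 (SE, limma adjusted p = 0.158). The other 3 genes overlapped between the groups. Kmt2a, the MLL gene that is rearranged in acute leukemia, had 12.5, 14.6 and 13.4 FPKM in the controls and 13.1, 14.4 and 10.5 FPKM after I13, a log2 fold change of -0.10 with a 95% confidence interval of -0.42 to 0.22, turning to 0.03 without I13 replicate 3. The log2 fold changes of Kmt2c, the paralogue of Kmt2d, and of Kmt2e, which has no known methyltransferase activity, were 0.20 and 0.02.

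Of the 4 members that write H3K9 methylation, 2 (50%) were lower at an unadjusted p below 0.05, against 10.8% of all genes tested. On the higher side there were 0, against 7.79%. Setdb1 and Setdb2 did not match the name rule and are counted below with the other SET and PR domain genes. Suv39h1 (ENSMUSG00000039231), which trimethylates H3K9 in constitutive heterochromatin, measured 17.97, 17.6 and 16.2 FPKM across control replicates 1 to 3, against 14.3, 14.2 and 12.01 FPKM across I13 replicates 1 to 3. Every I13 sample was lower than every control, with means from 17.3 ± 0.902 FPKM in the controls to 13.5 ± 1.27 FPKM after I13 (mean ± SD, n = 3 each) and a log2 fold change of -0.36 ± 0.10 (SE, limma adjusted p = 0.158). Its paralogue Suv39h2 was far less abundant, with 3.25, 3.85 and 3.26 FPKM in the controls and 4.16, 3.26 and 2.91 FPKM after I13. The log2 fold change of Suv39h2 was -0.01, turning positive when rescaled to TPM, with a 95% confidence interval of -0.40 to 0.37. Ehmt1 (ENSMUSG00000036893) and Ehmt2 encode GLP and G9a, which form the heterodimer that mono- and dimethylates H3K9 in euchromatin. Ehmt1 had 11.03, 12.2 and 11.6 FPKM in the controls and 9.82, 9.98 and 8.80 FPKM after I13, a log2 fold change of -0.29 ± 0.10 (SE, limma adjusted p = 0.196) without overlap. Ehmt2, the most abundant member, had 48.5, 37.5 and 50.6 FPKM in the controls and 40.2, 33.03 and 40.2 FPKM after I13. It was lower in every same-numbered pair, but control replicate 2 lay below I13 replicates 1 and 3. Its log2 fold change was -0.26 ± 0.14 (SE, limma adjusted p = 0.365), with -0.39 without control replicate 2 and -0.17 without I13 replicate 2. With the replicate block the SE of Ehmt2 was 0.07 and its limma adjusted p 0.0869.

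The tested members that write H3K27 and H3K36 methylation did not separate by treatment. Genes outside the name rule are not covered by this. Ezh2, the main catalytic subunit of the Polycomb repressive complex PRC2, measured 16.6, 19.4 and 18.3 FPKM across control replicates 1 to 3, against 22.7, 21.5 and 17.1 FPKM across I13 replicates 1 to 3. I13 replicates 1 and 2 were above all controls, and I13 replicate 3 lay among them. The log2 fold change of Ezh2 was 0.16 ± 0.13 (SE, limma adjusted p = 0.535), with a 95% confidence interval of -0.14 to 0.47. It was 0.10 without control replicate 1, 0.08 without I13 replicate 1 and 0.29 without I13 replicate 3. Ezh1, its less active paralogue that is typical of non-dividing cells, had 6.64, 6.07 and 8.57 FPKM in the controls and 6.08, 6.80 and 7.99 FPKM after I13, a log2 fold change of -0.02 that turned positive when rescaled to TPM and an interval of -0.41 to 0.36. Nsd2, the writer of H3K36 dimethylation that is activated by translocation in myeloma, had 14.6, 17.03 and 16.01 FPKM in the controls and 16.6, 16.3 and 12.7 FPKM after I13, with I13 replicate 3 the lowest of all. Its log2 fold change was -0.07 (95% confidence interval -0.37 to 0.23), turning to 0.05 without I13 replicate 3. Nsd3 and Setd2, the latter the writer of H3K36 trimethylation, had log2 fold changes of 0.13 and 0.17, both with overlapping groups.

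Of the 4 members that write H3K79 and H4K20 methylation, Dot1l and Kmt5c were lower at an unadjusted p below 0.05. The share of all genes tested was 10.8%. Dot1l (ENSMUSG00000061589), the one known H3K79 methyltransferase and a cofactor of MLL fusion proteins, measured 15.7, 16.6 and 16.2 FPKM across control replicates 1 to 3, against 14.2, 13.4 and 12.6 FPKM across I13 replicates 1 to 3. The groups did not overlap, and the log2 fold change was -0.27 ± 0.09 (SE, limma adjusted p = 0.190). Kmt5c (ENSMUSG00000059851), which trimethylates H4K20 in heterochromatin, had 14.3, 14.6 and 13.3 FPKM in the controls and 11.7, 11.8 and 10.6 FPKM after I13, a log2 fold change of -0.30 ± 0.09 (SE, limma adjusted p = 0.166) with no overlap. Kmt5a, the monomethyltransferase of H4K20 whose protein is cell cycle regulated, had 30.3, 39.8 and 32.9 FPKM in the controls and 28.7, 29.8 and 27.6 FPKM after I13. All I13 values lay below the controls, though control replicate 2 stood well above the other controls, and the log2 fold change was -0.25 ± 0.12 (SE, limma adjusted p = 0.306). Without control replicate 2 it was -0.14. Kmt5b overlapped between the groups, with a log2 fold change of -0.13. The other SET domain genes tested were Setd3, an actin histidine methyltransferase, Setd5 and Setd6, and their log2 fold changes lay between -0.08 and 0.09 with overlapping groups.

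The 2 LSD1 type demethylases had log2 fold changes of opposite sign. Kdm1b (ENSMUSG00000038080), or LSD2, which demethylates H3K4 in gene bodies and in oocytes, measured 3.34, 3.97 and 3.78 FPKM across control replicates 1 to 3, against 4.76, 4.57 and 4.63 FPKM across I13 replicates 1 to 3. The I13 samples lay close together and above all controls, with means from 3.70 ± 0.323 FPKM in the controls to 4.65 ± 0.0967 FPKM after I13 (mean ± SD, n = 3 each) and a log2 fold change of 0.33 ± 0.11 (SE, limma adjusted p = 0.201). Kdm1a, or LSD1, the demethylase of H3K4 that pairs with deacetylases in CoREST, had 20.4, 21.04 and 18.8 FPKM in the controls and 19.95, 18.2 and 17.1 FPKM after I13. It was lower in all 3 same-numbered pairs, with overlapping groups and a log2 fold change of -0.12 (95% confidence interval -0.35 to 0.11), or -0.07 without I13 replicate 3.

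Of the members named Kdm2 or Kdm3, Kdm2b alone was without overlap. The KDM3 family gene Jmjd1c did not match the name rule and is counted below with the other JmjC genes. All its I13 samples lay above all its controls. Kdm2b (ENSMUSG00000029475), an H3K36 demethylase that recruits a variant Polycomb complex to CpG islands, had 4.04, 5.18 and 4.52 FPKM in the controls and 3.20, 3.80 and 3.63 FPKM after I13. The I13 values were all lower, with a log2 fold change of -0.36 ± 0.14 (SE, limma adjusted p = 0.229). Kdm3b, a demethylase of H3K9, had 15.2, 15.5 and 13.1 FPKM in the controls and 11.6, 13.6 and 12.01 FPKM after I13 and was lower in each same-numbered pair, with a log2 fold change of -0.23 ± 0.11 (SE, limma adjusted p = 0.315) and overlap between control replicate 3 and I13 replicate 2. Kdm2a and Kdm3a had log2 fold changes of -0.03 and 0.10, both with overlap, the former changing sign when rescaled to TPM.

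The KDM4 genes, which encode demethylases of H3K9 and H3K36, held the largest differences of the family, with 2 of the 3 tested lower and 1 higher at an unadjusted p below 0.05, against 10.8% and 7.79% of all genes tested. Kdm4b (ENSMUSG00000024201) measured 12.9, 12.9 and 13.8 FPKM across control replicates 1 to 3, against 7.77, 8.75 and 10.6 FPKM across I13 replicates 1 to 3. The controls were close together, and I13 replicate 3 was nearer to them than the other I13 samples. The means went from 13.2 ± 0.509 FPKM in the controls to 9.05 ± 1.45 FPKM after I13 (mean ± SD, n = 3 each), 0.687-fold, with a log2 fold change of -0.55 ± 0.13 (SE, limma adjusted p = 0.116). Without I13 replicate 3 this value was -0.67, past the fold change limit but not the adjusted p limit. Kdm4a (ENSMUSG00000033326) had 32.01, 26.5 and 24.4 FPKM in the controls and 18.1, 20.7 and 21.9 FPKM after I13, with control replicate 1 well above the other controls. All I13 samples were nonetheless lower, and its log2 fold change was -0.44 ± 0.13 (SE, limma adjusted p = 0.158). It was -0.33 without control replicate 1. Kdm4c (ENSMUSG00000028397), in contrast, had 5.69, 6.11 and 5.51 FPKM in the controls and 7.79, 7.58 and 6.21 FPKM after I13. All I13 samples were higher, I13 replicate 3 the least, with a log2 fold change of 0.31 ± 0.12 (SE, limma adjusted p = 0.237). Kdm4d was below the testing limit and its fragments may be shared with the closely related Kdm4dl pseudogene.

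Among the KDM5 genes, which encode demethylases of di- and trimethylated H3K4, Kdm5c stood apart. Kdm5c (ENSMUSG00000025332) measured 39.6, 33.6 and 32.9 FPKM across control replicates 1 to 3, against 27.1, 25.2 and 28.5 FPKM across I13 replicates 1 to 3. Control replicate 1 was the highest, and all I13 samples lay below all controls. The means went from 35.4 ± 3.67 FPKM in the controls to 26.9 ± 1.66 FPKM after I13 (mean ± SD, n = 3 each), and the log2 fold change was -0.39 ± 0.11 (SE, limma adjusted p = 0.138). Kdm5a and Kdm5b overlapped between the groups, with log2 fold changes of 0.11 and -0.03, the latter changing sign when rescaled to TPM.

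The KDM6 genes, which encode demethylases of H3K27, did not separate by treatment, with log2 fold changes of 0.12 for Kdm6a and -0.09 for Kdm6b. The fragments of Kdm6b and of its antisense gene Kdm6bos can be told apart only if the counting used strand. Kdm6a was higher after I13 in each of the 3 same-numbered pairs, with overlap. Kdm7a, a demethylase of H3K9 and H3K27, had 2.84, 2.30 and 2.60 FPKM in the controls and 3.19, 2.85 and 2.98 FPKM after I13. The I13 samples were all above the controls by a small margin, and the log2 fold change was 0.22 ± 0.14 (SE, limma adjusted p = 0.422), or 0.14 without control replicate 2. Kdm8, a JmjC protein named as a demethylase and also known as a hydroxylase, had 7.51, 7.64 and 6.60 FPKM in the controls and 6.20, 6.34 and 6.05 FPKM after I13. The I13 samples were close together and below all controls, with a log2 fold change of -0.22 ± 0.10 (SE, limma adjusted p = 0.297).

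Ratios between related members do not depend on the scaling of a library. Of 10 ratios, chosen after the values were seen and given without a test, 5 did not overlap between the groups. The share among gene pairs in general was not counted, so this count has no background. Kmt2c relative to Kmt2d, both enhancer enzymes, was 0.469, 0.467 and 0.470 in control replicates 1, 2 and 3 and 0.688, 0.751 and 0.600 in I13 replicates 1, 2 and 3. The controls were nearly identical, and each I13 sample was higher. Kdm4c relative to Kdm4b was 0.441, 0.475 and 0.400 in control replicates 1, 2 and 3 and 1.00, 0.866 and 0.585 in I13 replicates 1, 2 and 3. Kdm4c relative to Kdm4a was 0.178, 0.231 and 0.226 in control replicates 1, 2 and 3 and 0.431, 0.367 and 0.283 in I13 replicates 1, 2 and 3. In both ratios I13 replicate 3 was the closest to the controls. Their lack of overlap adds nothing to the values of the single genes. It was fixed by Kdm4c lying above, and Kdm4a and Kdm4b below, the controls in every I13 sample. Suv39h1 relative to Suv39h2 was 5.53, 4.56 and 4.99 in control replicates 1, 2 and 3 and 3.43, 4.34 and 4.12 in I13 replicates 1, 2 and 3. Kdm1a relative to Kdm1b was 6.10, 5.30 and 4.96 in control replicates 1, 2 and 3 and 4.19, 3.98 and 3.71 in I13 replicates 1, 2 and 3. These 2 ratios were lower in every I13 sample. Ezh2 relative to Ezh1 varied from 2.14 to 3.20 in the controls and from 2.14 to 3.73 after I13, and Ehmt2 relative to Ehmt1 from 3.07 to 4.39 and from 3.31 to 4.57, so both overlapped.

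**Figure D4:**
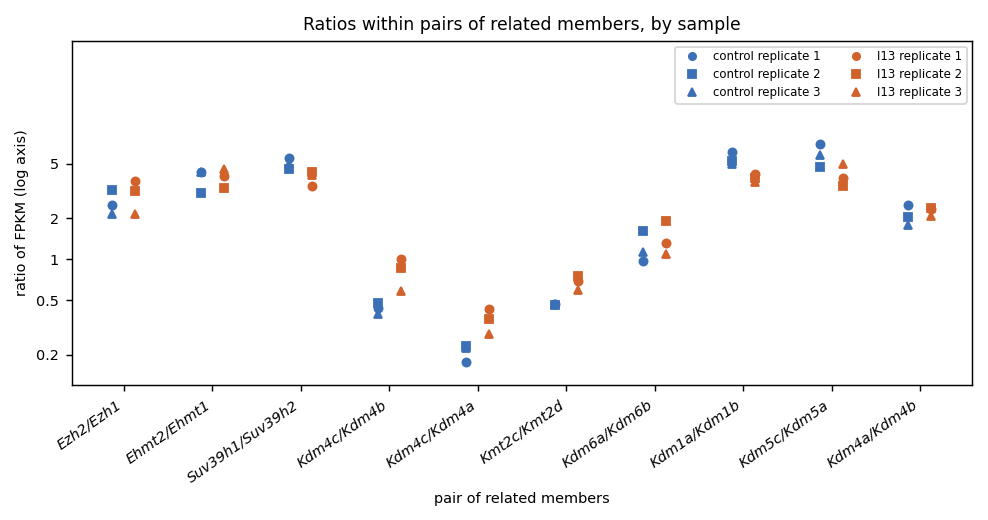
Ratio of the FPKM of 10 pairs of related members in each sample, on a log axis, with control samples in blue, I13 samples in orange and the replicate number as the marker shape. Kmt2c/Kmt2d runs from 0.467 to 0.470 in the controls and from 0.600 to 0.751 after I13, while Ezh2/Ezh1 overlaps.

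Genes that act with these enzymes were counted from lists compiled with earlier results of these data known. In no list did a gene pass both thresholds in the fit without the block. At an unadjusted p below 0.05, to be read beside each count that follows, 10.8% of all genes tested were lower and 7.79% higher. Of 13 COMPASS and MLL partners tested, 3 (23.1%) were lower and 0 higher at that limit, and their median log2 fold change was -0.12. Hcfc1, a chromatin adaptor of the SETD1 and MLL complexes, had 57.6, 65.5 and 55.7 FPKM in the controls and 44.6, 49.95 and 41.9 FPKM after I13. It was lower without overlap, with a log2 fold change of -0.39 ± 0.11 (SE, limma adjusted p = 0.140), and with the replicate block the adjusted p from limma was 0.0464. Cxxc1, the CpG-binding subunit of the SETD1 complexes, had 38.7, 35.9 and 39.4 FPKM in the controls and 28.02, 27.4 and 31.7 FPKM after I13 and a log2 fold change of -0.39 ± 0.09 (SE, limma adjusted p = 0.120). Of 8 PRC2 partners tested, 1 was lower (Rbbp4) and 1 higher (Mtf2), 12.5% each and so close to the background, with a median of 0.027. Of 11 CoREST partners tested, 2 (18.2%) were lower and 0 higher, with a median of 0.075, and Zmym3 had the lowest p, with a log2 fold change of -0.46 ± 0.11 (SE, limma adjusted p = 0.118).

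Of 8 partners of H3K9 methylation tested, 2 (25%) were lower and 0 higher at the same limit. Trim28, the corepressor KAP1 that recruits the H3K9 methyltransferase Setdb1, had 115, 135 and 118 FPKM in the controls and 88.5, 96.4 and 89.6 FPKM after I13. It was lower without overlap, with a log2 fold change of -0.42 ± 0.09 (SE, limma adjusted p = 0.113) and an adjusted p of 0.0440 from limma with the replicate block. Cbx5, which encodes the heterochromatin protein HP1 alpha, had 59.5, 76.8 and 62.6 FPKM in the controls and 52.6, 55.6 and 42.4 FPKM after I13 and a log2 fold change of -0.40 ± 0.14 (SE, limma adjusted p = 0.205). Of 12 other SET and PR domain genes tested, 2 were lower (Smyd5 and Setdb1, 16.7%) and 0 higher. The 6 DOT1L partners tested included 1 lower gene, Mllt10 (16.7%), and 0 higher ones.

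Of 10 protein arginine methyltransferase genes and partners tested, 3 (30%) were lower and 0 higher, with Prmt1 and Prmt7 at the lowest p. Prmt1, the main enzyme of asymmetric arginine dimethylation, had 98.3, 93.6 and 77.4 FPKM in the controls and 59.6, 63.5 and 59.9 FPKM after I13. All I13 samples were lower, with a log2 fold change of -0.55 ± 0.11 (SE, limma adjusted p = 0.109) and an adjusted p of 0.0450 from limma with the replicate block. Of 10 other JmjC genes tested, Jmjd1c was higher and Jmjd4 lower at an unadjusted p below 0.05, 10% each. Jmjd4 went from 8.62 ± 1.45 FPKM in the controls to 5.66 ± 0.801 FPKM after I13 (mean ± SD, n = 3 each), and the log2 fold change was -0.59 ± 0.16 (SE, limma adjusted p = 0.137). With the replicate block its adjusted p from limma was 0.0445, so Jmjd4 fell past both thresholds there.

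**Figure D5:**
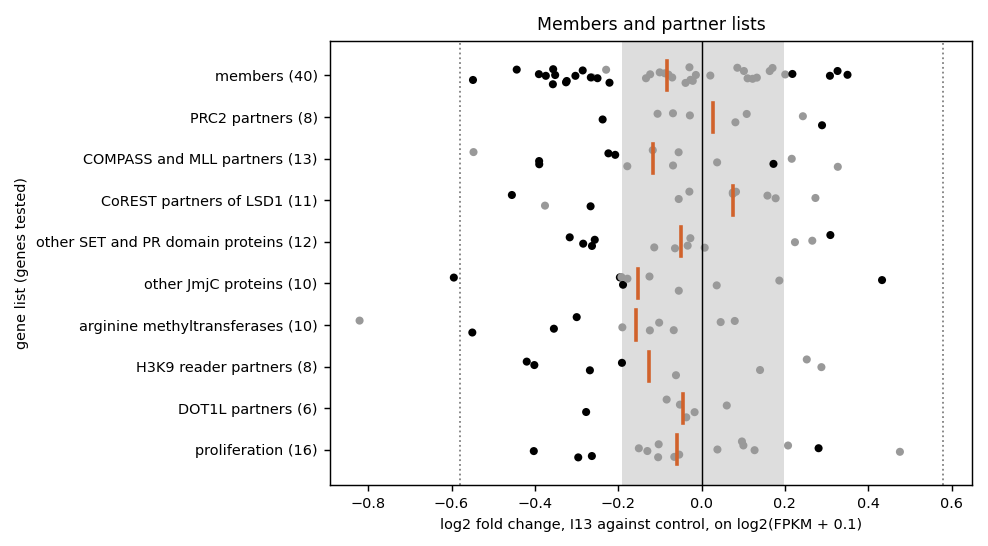
Log2 fold change of I13 against control on log2(FPKM + 0.1) for the 40 members and for the genes tested in 9 lists, 1 point per gene, black where the groups do not overlap and grey where they do, with orange bars at list medians, a grey band over the quartiles of all genes tested (-0.19 to 0.20) and dotted lines at -0.58 and 0.58. The members' median is -0.084.

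Marker and proliferation genes were read in the same samples, and their part in the results above was not tested. The 7 hematopoietic markers, all above 0 in every sample, summed to 542 to 986 FPKM in the controls and 1031 to 1759 FPKM after I13, mostly from Csf2rb and Csf2rb2, near-identical receptor genes that can share fragments. With the replicate block the limma adjusted p was 0.0313 for Csf2rb, 0.0312 for Csf2rb2 and 0.0384 for the globin Hba-a1, all higher after I13. Without the block the limma adjusted p was 0.220, 0.165 and 0.116 in the same order. The groups overlapped for Csf2rb, and Hba-a1 had only 17, 3 and 8 fragments in control replicates 1, 2 and 3. The 3 erythroid markers Klf1, Hba-a1 and Hbb-bs summed to 7.52 to 11.1 FPKM in the controls and 15.8 to 20.01 FPKM after I13, with Klf1 going from 8.38 to 14.6 FPKM and Hba-a1 from 0.650 to 3.57 FPKM in the mean, while Hbb-bs had a mean below 0.5 FPKM in both groups. The sums of the fibroblast marker Col1a1 and of the T cell markers Cd3d, Cd3e and Cd8a reached at most 0.376 FPKM in a sample, and the other fibroblast and T cell markers and the epithelial markers are not analysed here. The 16 proliferation genes summed to 1297 to 1471 FPKM in the controls and 1201 to 1474 FPKM after I13, with 1 gene (6.25%) higher and 3 (18.75%) lower at an unadjusted p below 0.05.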

How the data were processed

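mRNA of 6 samples of the murine line BaF3-T315I, 3 control and 3 exposed to I13, was extracted with Trizol and made into stranded libraries. The authors deposited FPKM values of 22413 genes, normalized for length and mapped fragments, with 1 column per sample and no pooling. The submitters' processing notes name Trimmomatic, HISAT2, Cufflinks and HTSeq without versions and the build hg38, although the gene identifiers are mouse. The strand setting of the counting is not given in the sources used here, and 0 columns of sample values were left without a sample. No mouse sequence or coordinate was used.

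Whole fragments and lengths were recovered from the FPKM for 100% of the genes within 0.03 fragments. Library totals set the precision. Groups and replicate numbers came from the labels. limma 3.58.1 in R 4.3.3 was run on log2(FPKM + 0.1) of 12163 genes, those with a mean of 0.5 FPKM or more, with a trend, Benjamini-Hochberg adjustment and two-sided tests. The thresholds were those of the study, whose sequencing methods do not name the test behind them. The script was tested on simulated data. Correlations of deviations from the group means were 0.15, 0.30 and 0.22 for same-numbered samples and -0.26 to 0.05 for others. All were above 0.1 for same-numbered samples. Deviations within a group cancel out, so values above 0 for some pairings force values below 0 for others. The check therefore cannot establish a pairing. The blocked fits treated same-numbered samples as pairs, although no source states a shared batch, and their p-values depend on this. The main fit had no block. Standard errors, intervals and adjusted p of single genes come from the main fit unless the block is named.

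By rule, per-sample values are printed for the 20 members with the lowest p and for Ezh1, Ezh2, Ehmt1, Ehmt2, Suv39h1, Suv39h2, Kdm1a, Dot1l, Nsd2 and Kmt2a. Partner genes are named by an adjusted p below 0.05 in either fit or as the 2 lowest p of a list, not all of them printed. Members and lists were chosen with earlier results of these data known, and 1 marker gene is not reported here. Alternatives were other pseudocounts, filters, scalings and eBayes settings, the block, voom and leaving out samples. Counts by adjusted p alone, and the 10 ratios, were added after seeing the data. matplotlib 3.10.9 drew the figures.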

Additional observations from a re-analysis of the deposited data

How the results depend on the processing

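The replicate block changed no call of a member. It gave 0 members called higher, 0 called lower, 3 higher and 15 lower at an unadjusted p below 0.05, and the same median log2 fold change of -0.084. Over 20 alternatives, 0 members passed both thresholds in either direction. Counts by adjusted p alone, chosen after seeing the data, were 0 in every alternative except voom on the recovered fragments with the block, which gave 1 higher and 10 lower members; the cause was not tested. With 1 sample left out, the members higher at an unadjusted p below 0.05 ran from 1 to 6, with 1 without control replicate 1, 1 without I13 replicate 1, 6 without I13 replicate 3, and the members lower ran from 8 to 13 and the median log2 fold change from -0.134, without I13 replicate 1, to -0.080. The blocked fit gave 1 higher member without replicate 1 or 2, 5 lower members without replicate 2 and a median of -0.145 without replicate 1. Shares of all genes tested were not counted for fits with samples left out or rescaled to TPM. These counts of members therefore have no background.

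Of the 40 members, 31 kept their direction in every alternative, and the other 9 lay near 0. Rescaled to TPM, the median was -0.055 and 9 members were lower at an unadjusted p below 0.05. The rescaling moved the median of all genes tested from -0.0053 to 0.023. The log2 fold changes of Ezh1, Kdm2a, Kdm5b and Suv39h2 were 0.0078, 7.0e-05, 0.0023 and 0.015, against negative values without the rescaling. With 1 sample left out, the log2 fold change ran from -0.124 to 0.121 for Ezh1, -0.0826 to 0.00468 for Kdm2a, -0.0975 to 0.103 for Kdm5b, -0.223 to 0.108 for Kdm6b, -0.200 to 0.0291 for Kmt2a, -0.0513 to 0.0612 for Kmt2e, -0.137 to 0.0507 for Nsd2, -0.156 to 0.0151 for Setd5 and -0.153 to 0.0955 for Suv39h2. In the blocked fit without a pair it turned to 0.0316 (without replicate 1) and 0.0178 (without replicate 3) for Ezh1, 0.0191 (without replicate 3) for Kdm2a, 0.0251 (without replicate 1) and 0.0393 (without replicate 2) for Kdm5b, 0.0146 (without replicate 1) for Kdm6b, 0.0269 (without replicate 3) for Kmt2a, -0.0364 (without replicate 1) for Kmt2e, 0.0580 (without replicate 3) for Nsd2 and 0.0954 (without replicate 2) and 0.0569 (without replicate 3) for Suv39h2. The cause of the changes with samples left out was not tested. Nsd1, Setd4 and Kdm4d had at most 34 fragments in a library, against 225 or more for each member tested.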
